A study of Mus musculus with 4 samples.

Results

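The Ly6 genes encode small cell-surface proteins that share a cysteine-rich three-finger fold and are held in the outer leaflet of the membrane by a glycosylphosphatidylinositol (GPI) anchor. Several are the antigens by which mouse marrow cells are sorted. Ly6a encodes Sca1, used to mark stem and early progenitor cells. Ly6c1 and Ly6c2 encode the Ly6C antigens of monocytes and some lymphocytes, Ly6g encodes the neutrophil antigen Ly6G, Ly6d marks B-lineage cells and their precursors, and Ly6e encodes a broadly expressed member known for its links to interferon and to virus entry. The members described here are the 6 listed symbols Ly6a, Ly6c1, Ly6c2, Ly6d, Ly6e and Ly6g. All 6 were found among the 27998 genes of the deposited matrices, and each symbol's identifier matched its GENCODE entry.

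Bone marrow of 4 chimeric mice was measured by single-cell RNA sequencing with 3′ tags, as 1 library per mouse, with 2 mice for each of the labels Idh1-WT and Idh1-R132H. The gene encodes cytosolic isocitrate dehydrogenase, and the R132H enzyme makes 2-hydroxyglutarate. Recombination of an EYFP reporter and of the heterozygous Idh1-R132H allele had been induced in donors by tamoxifen over 5 days. EYFP-positive lineage-negative donor marrow was moved 2 weeks later into irradiated mice that received no other marrow, and chimeric marrow was taken at 16 weeks. In each mouse 4000 cells were sorted from each of 3 EYFP-positive populations and pooled in 1 tube: all CD45.1+ cells, the Lin- cKit+ fraction (LK) and its Sca1+ part (LSK, enriched for stem cells). The Cre driver, the antibodies of the lineage panel, the age of the mice and whether recipients of a group had separate donors are not given in the sources used here, so p-values measure the spread between these 4 samples only. Idh1 differs between the groups by a base change, which a 3′ count of Idh1 cannot show. Because Sca1 was a sorting antigen, Ly6a is partly a property of the sort, and its level in the sorted stem cells is no independent finding.

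The libraries held between 40364701 and 56353466 UMIs (unique molecular identifiers, each 1 counted transcript), and 16169 cells were analysed. Clusters of cells were made without the Ly6 genes and named from marker genes, which gave 15 named classes, each called "-like". Levels are CPM, a gene's UMIs in a class scaled to a common total of UMIs per class and library, and values of 4 libraries are given in the order Idh1-WT 1, Idh1-WT 2, Idh1-R132H 1, Idh1-R132H 2. A CPM from 3′ tags is not scaled by transcript length, so levels are compared between classes and not between genes. Libraries Idh1-WT 1 and Idh1-R132H 1 shared 345 cell barcodes, against 13 to 33 for the other pairs. Among those left after doublet removal, the median count was 587 UMIs in Idh1-WT 1 and 26872.5 in Idh1-R132H 1. Of the Idh1-WT 1 copies, 305 lay in unnamed clusters. Results that rest on these cells are given with and without them.

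All 6 genes lie on chromosome 15 within 397071 bases (GRCm38, GENCODE vM21). In order these are Ly6d (74762056 to 74763620, minus strand), Ly6e (74955051 to 74959905, plus), Ly6a (74994877 to 74998031, minus), Ly6c1 (75044018 to 75048830, minus), Ly6c2 (75108158 to 75111970, minus) and Ly6g (75155240 to 75159126, plus). The longest transcripts of Ly6c1 and Ly6c2 were identical at 95.02% of aligned positions. In their longest transcripts, 9.51% of the 96-base windows in the last 400 bases, where 3′ reads fall, occurred in both genes, while Ly6d, Ly6e and Ly6g shared none with any other gene. How the counting assigned reads that fit both Ly6c1 and Ly6c2 is not given in the sources used here, so the split between this pair is uncertain.

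Start sites of 3 members, Ly6c1, Ly6c2 and Ly6g, were in the RefSeq promoter table (GRCm38.p6). Their upstream sequences are shown because these neighbouring genes had unlike levels across the classes, as described below. Each is the 250 bases before the start site, 5′ to 3′ on the gene's strand, and capitals mark GAGGAAGT, a form of the site bound by PU.1, a transcription factor of myeloid and B cells. Ly6c1 lies at chr15:75048838-75049087 (minus strand), Ly6c2 at chr15:75111972-75112221 (minus) and Ly6g at chr15:75155011-75155260 (plus). The Ly6g stretch ends past the GENCODE start of that gene at 75155240. For Ly6c2, the bases checked after the start site occurred in no protein-coding GENCODE transcript of the gene.
Ly6c1: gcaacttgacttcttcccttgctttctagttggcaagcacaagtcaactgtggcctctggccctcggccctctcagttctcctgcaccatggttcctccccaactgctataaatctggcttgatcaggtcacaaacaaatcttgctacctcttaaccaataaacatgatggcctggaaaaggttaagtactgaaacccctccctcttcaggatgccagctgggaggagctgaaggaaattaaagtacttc
Ly6c2: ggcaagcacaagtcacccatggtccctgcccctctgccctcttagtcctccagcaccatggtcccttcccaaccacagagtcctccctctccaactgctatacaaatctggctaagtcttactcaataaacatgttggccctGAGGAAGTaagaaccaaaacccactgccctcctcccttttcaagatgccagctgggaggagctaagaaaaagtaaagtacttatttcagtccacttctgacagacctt
Ly6g: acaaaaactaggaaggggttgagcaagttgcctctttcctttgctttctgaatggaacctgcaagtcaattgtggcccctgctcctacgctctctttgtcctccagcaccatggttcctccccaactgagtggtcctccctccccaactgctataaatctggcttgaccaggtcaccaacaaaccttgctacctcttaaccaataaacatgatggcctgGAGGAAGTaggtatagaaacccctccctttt
The match began 108 bases before the start of Ly6c2 and 31 bases before that of Ly6g, a further match lay 26 bases after the start of Ly6c2, and none was found on either strand for Ly6c1. This motif was chosen after the sequences had been seen. The windows searched were 300 bases long, the 250 shown and the bases that follow, and 3.20% of 32815 such promoter windows hold it. An interferon-stimulated response element (in 3.43% of promoters) and a GAS element (TTCNNNGAA, in 8.29%), searched on both strands, had no match in these 3 windows. Over the whole window, identity was 62.3% between Ly6c1 and Ly6c2, 62.5% between Ly6c1 and Ly6g, and 48.8% between Ly6c2 and Ly6g.

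Across the cells analysed, 211413 UMIs were counted for Ly6c2, 123494 for Ly6e, 10953 for Ly6a, 6776 for Ly6g, 6141 for Ly6d and 130 for Ly6c1. Each member except Ly6c1 had its own distribution over the cell classes. In a comparison of stem-, neutrophil-, monocyte- and mature B-like cells, Ly6c2 was highest in monocyte-like, Ly6g in neutrophil-like, and Ly6d and Ly6e in mature B-like cells, each with its lowest library above the highest library of the other 3 classes. Ly6a was highest in mature B-like and stem-like cells, whose libraries overlapped. Ly6c1 was nominally highest in stem-like cells, at 1.0 to 1.6 CPM, with no UMI in the other 3 classes. A count of 0 over the 4 libraries still allows 0.592 CPM in monocyte-, 1.52 in neutrophil- and 3.02 in mature B-like cells, so the position of Ly6c1 was not detectable at this depth. Class levels are a description without a test, since the classes were built from the same cells. The share of all genes that separate these 4 classes in this way was not counted.

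**Figure D1:**
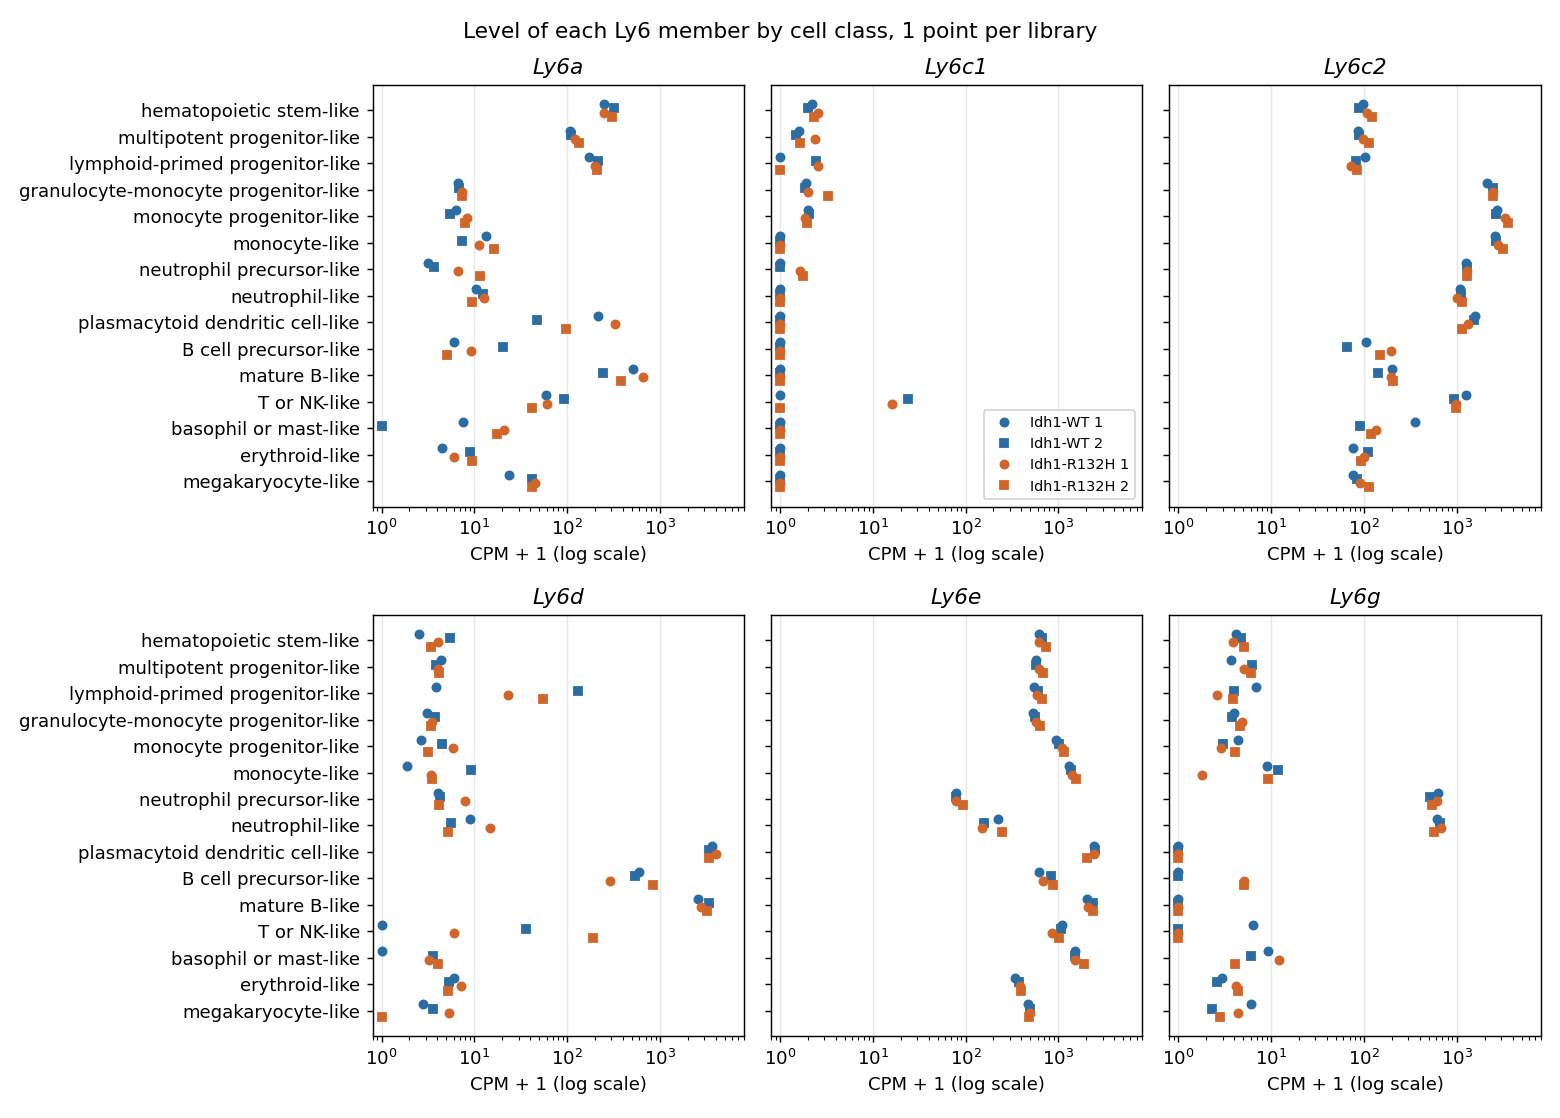
Level of each member (x axis, CPM plus 1, log scale) in the 15 named classes (y axis), with 1 point per library, coloured by group. Ly6g stands above 500 CPM in both neutrophil classes and below 12 CPM in the other 13, whereas Ly6e exceeds 70 CPM in every class.

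Ly6a, the Sca1 gene, was high in the earliest progenitors and low in committed myeloid cells. In hematopoietic stem-like cells its level was 250.6, 317.6, 249.9 and 303.6 CPM. It was 173.3, 212.5, 197.0 and 208.3 CPM in lymphoid-primed progenitor-like and 106.7, 110.1, 120.4 and 134.0 CPM in multipotent progenitor-like cells, so these classes followed each other without overlap between libraries. Past the branch to the myeloid lineage it was 6.0 ± 0.4 CPM (SD, n = 4) in granulocyte-monocyte progenitor-like, 6.0 ± 1.4 in monocyte progenitor-like and 11.1 ± 3.7 in monocyte-like cells, neighbours that lay close together. Erythroid-like cells stood at 6.2 ± 2.4 CPM and megakaryocyte-like cells, which descend in part directly from stem cells, at 37.4 ± 9.8 CPM. With every cell thinned to 1000 UMIs, a Ly6a UMI was seen in 21.9%, 24.8%, 22.9% and 24.9% of stem-like cells and in 0.2% to 1.1% of granulocyte-monocyte progenitor-like cells. Without thinning the shares were 69.0% to 76.6% and 10.8% to 12.1%, at median depths of 5795 to 7112.5 and 20400 to 23656.5 UMIs.

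Within the stem-like class, Ly6a differed between its 2 clusters. The larger, led by Myl10, Gm19590 and Pdzk1ip1, had 231.9, 257.7, 230.8 and 266.7 CPM. The smaller, led by Sult1a1, Mycn and Iigp1, had 423.7, 504.1, 371.9 and 563.9 CPM and held 83, 208, 114 and 115 cells. Every library of the smaller cluster was above every library of the larger, and within each cluster the 2 groups overlapped. The number of cells in the smaller cluster was largest in Idh1-WT 2, the library with the highest class level of Ly6a.

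Mature B-like cells had a mean of 448.0 ± 174.4 CPM of Ly6a, with 512.0, 244.6, 652.1 and 383.4 CPM in the 4 libraries. The first leading gene of their cluster was Jchain, a marker of the plasma cell set. Whether the cells rich in Ly6a were plasma cells was not tested. Much of this lay in few cells: the 5 richest cells held 47.1%, 27.9%, 57.9% and 32.9% of the Ly6a UMIs, and 1 cell of Idh1-R132H 1 held 72 of 183. Without those 5 cells the levels were 295.0, 192.1, 333.9 and 277.1 CPM, which overlap the stem-like range. In stem-like cells the 5 richest held 3.3% to 5.4%. In plasmacytoid dendritic cell-like cells, of which there were 23 to 30 per library, Ly6a was 215.8, 46.4, 327.1 and 97.4 CPM, and the 5 richest cells held at least 70.0% of the UMIs. T or NK-like cells were at 63.0 ± 21.5 CPM.

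**Figure D2:**
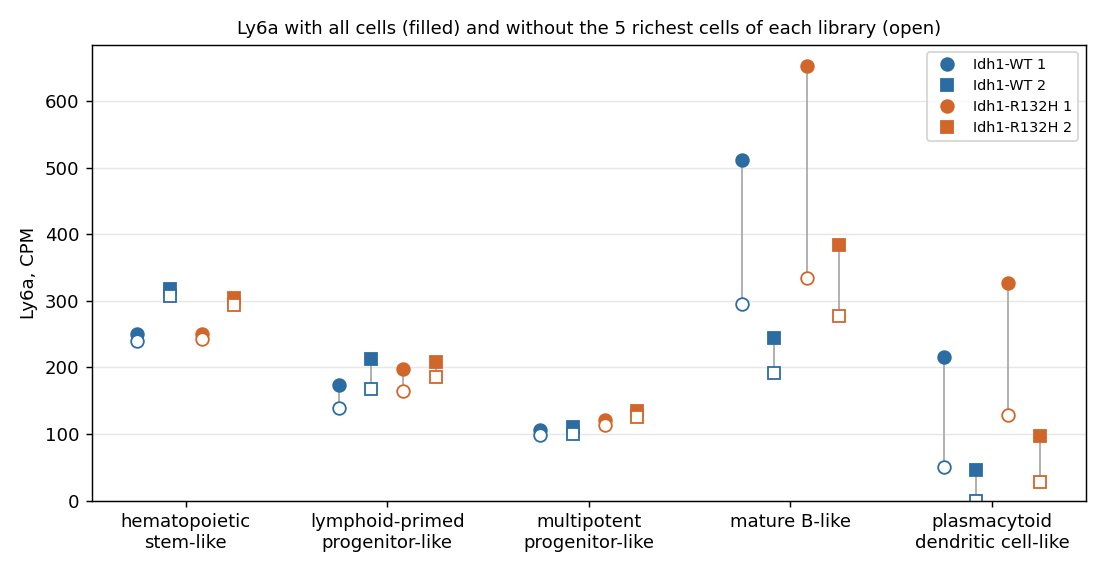
Ly6a level (y axis, CPM) in the 5 classes where it was highest (x axis), with all cells (filled) and without the 5 richest cells of each library (open), 1 symbol per library. Removal of 5 cells lowers mature B-like Idh1-R132H 1 from 652.1 to 333.9 CPM, and stem-like Idh1-WT 1 from 250.6 to 239.6 CPM.

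Ly6c2, the Ly6C gene of these cells, was the member of the granulocyte-monocyte branch. It was at 2726.2, 2676.6, 3293.5 and 3552.0 CPM in monocyte progenitor-like, 2614.3, 2645.5, 2787.1 and 3185.1 CPM in monocyte-like and 2114.3, 2460.0, 2474.9 and 2479.6 CPM in granulocyte-monocyte progenitor-like cells. The first 2 of these overlapped, and every monocyte-like library lay above every granulocyte-monocyte progenitor-like one. Neutrophil precursor-like cells were lower at 1282.2 ± 21.8 CPM and neutrophil-like cells lower again at 1085.2 ± 55.2 CPM, without overlap between them. Among lymphoid and dendritic classes, plasmacytoid dendritic cell-like cells had 1394.5 ± 201.6 CPM and T or NK-like cells 1036.9 ± 145.5 CPM. Stem-like cells had 103.3 ± 15.3 CPM, and multipotent, lymphoid-primed, erythroid- and megakaryocyte-like cells lay between 84.5 and 95.6 CPM, neighbours within each other's spread.

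Low values of Ly6c2 have to be read against RNA outside cells. Barcodes with at most 50 UMIs held 1259.3 to 1529.3 CPM of Ly6c2, 655.2 to 811.3 of Ly6e, 75.1 to 95.7 of Ly6a, 51.6 to 64.1 of Ly6d and 46.2 to 63.0 of Ly6g. Mature B-like cells should lack Ly6C in the main, though any plasma cells in this class, whose cluster was led by Jchain, were not set apart. Of the mature B-like cells, 21.8% to 39.1% carried a Ly6c2 UMI at median depths of 1631.5 to 1776.5 UMIs. After subtraction of this free RNA, their mean Ly6c2 level was 69.2 CPM in place of 184.7. The same subtraction left 62.7 CPM of 103.3 in stem-like cells, 1037.9 of 1085.2 in neutrophil-like and 2852.0 of 2808.0 in monocyte-like cells. Levels near 100 CPM are therefore close to background, whereas the myeloid levels hardly moved.

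Ly6c1, the second Ly6C gene, was nearly absent despite its likeness to Ly6c2. It had 8, 6, 8 and 20 UMIs in granulocyte-monocyte progenitor-like, 9, 6, 7 and 7 in monocyte progenitor-like and 7, 5, 8 and 7 in stem-like cells, and none in monocyte-, neutrophil-, mature B-, erythroid- or megakaryocyte-like cells. In T or NK-like cells 4 UMIs in Idh1-WT 2 and 3 in Idh1-R132H 1 were counted, each from 2 cells, and none in the other libraries. Ly6c1 passed the filter on low counts in no class and was not tested.

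Ly6g, the Ly6G antigen gene, was high in the neutrophil-lineage classes among the named ones. Its level was 623.8, 515.8, 613.7 and 541.6 CPM in neutrophil precursor-like and 609.1, 654.1, 670.7 and 566.2 CPM in neutrophil-like cells, which overlapped. All other named classes had means between 0.0 and 7.0 CPM. No UMI was found in mature B- or plasmacytoid dendritic cell-like cells, which allows up to 3.02 and 5.56 CPM. Monocyte-like cells had 8.0, 10.9, 0.8 and 8.2 CPM, carried by 6, 4, 1 and 11 cells. A small unnamed cluster led by Gngt2, Ear2 and Clec4a3 had 58.2, 310.8, 48.2 and 263.0 CPM, below the neutrophil classes and above every monocyte-like library. The values of Idh1-WT 1 and Idh1-R132H 1 stand for only 3 UMIs each, so their place above monocyte-like cells is uncertain.

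The class level of Ly6g in neutrophil precursor-like cells averaged 2 unlike clusters. In the one led by Chil3, Camp and Ngp, of which Camp and Ngp encode granule proteins, Ly6g was 262.8, 143.1, 195.3 and 203.7 CPM. The one led by Ifitm6, Ltf and AA467197 had 1169.4, 1087.1, 1179.5 and 1214.4 CPM. Neutrophil-like cells, led by Retnlg, Gm5483 and Ccl6, stood between these at the values given above, and granulocyte-monocyte progenitor-like cells had 2.7 to 3.8 CPM. None of these 4 groups overlapped another in any library. Ly6c2 in the same groups was 1208.3, 1280.8, 1232.0 and 1278.2 CPM in the Chil3 cluster and 1316.9, 1331.1, 1350.1 and 1326.9 CPM in the Ifitm6 cluster, a small step beside that of Ly6g.

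In neutrophil-like cells 49.0%, 49.4%, 54.7% and 49.3% carried a Ly6g UMI, against 79.1%, 75.6%, 76.5% and 74.6% of neutrophil precursor-like cells. Median depths were 1525 to 1574 and 4199.5 to 4844 UMIs. Thinned to 1000 UMIs the shares were 37.4%, 42.6%, 45.6% and 33.8% against 49.3%, 45.0%, 48.1% and 43.4%, with 59, 46, 28 and 50 neutrophil-like and 8, 10, 6 and 12 precursor-like cells too shallow to enter. Monocyte-like cells, which should lack Ly6g, had a UMI in 3.5%, 2.3%, 0.5% and 4.4% of cells. Ly6c2 and Ly6g UMIs were counted together in 76.2%, 70.5%, 72.8% and 71.5% of neutrophil precursor-like cells, in the presence of the free RNA given above.

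**Figure D3:**
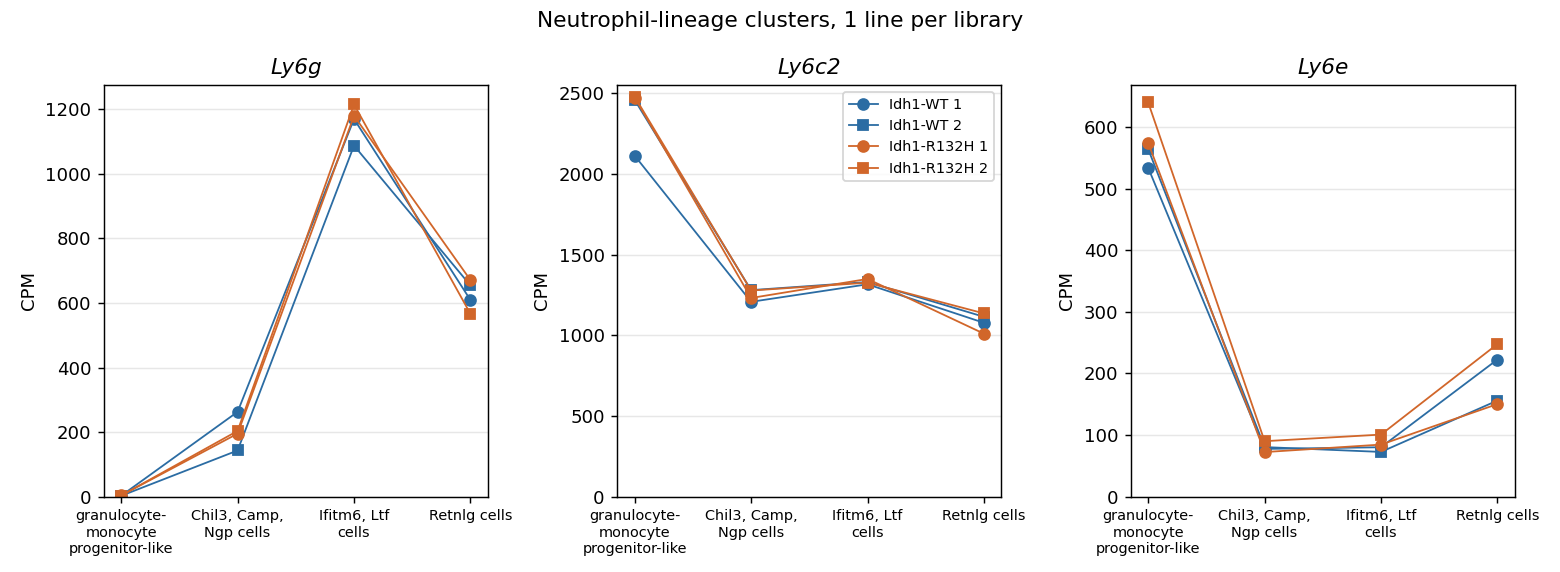
Levels (y axis, CPM) of Ly6g, Ly6c2 and Ly6e in granulocyte-monocyte progenitor-like cells and 3 neutrophil-lineage clusters (x axis), with 1 line per library. Ly6g is highest in the Ifitm6 and Ltf cluster, at 1087.1 to 1214.4 CPM, while Ly6e is at or below 100.8 CPM in both precursor clusters.

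Ly6d, the B-lineage member, was confined to 3 classes at levels over 100 CPM in the mean. Plasmacytoid dendritic cell-like cells had 3668.1, 3378.6, 4007.1 and 3353.1 CPM and mature B-like cells 2563.6, 3424.8, 2768.6 and 3240.6 CPM, with overlapping libraries. B cell precursor-like cells were lower at 595.0, 536.6, 287.0 and 845.3 CPM. The gene was carried by 91.3% to 99.2% of mature B-like and 82.1% to 90.0% of plasmacytoid dendritic cell-like cells. In lymphoid-primed progenitor-like cells Ly6d was 2.9, 130.5, 22.1 and 53.5 CPM from only 2, 9, 3 and 10 cells, and at least 91.1% of its UMIs lay in the 5 richest cells. In T or NK-like cells it was 0.0, 34.7, 5.0 and 187.9 CPM, with 23 UMIs in Idh1-R132H 2. The remaining classes had means of 1.96 to 7.65 CPM.

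Ly6e was the broadest member. It was highest in plasmacytoid dendritic cell-like (2355.4 ± 197.5 CPM) and mature B-like cells (2219.8 ± 169.8 CPM), which overlapped. Basophil or mast-like cells had 1617.3 ± 188.8 CPM and monocyte-like cells 1402.9 ± 97.1 CPM, again overlapping. Monocyte progenitor-like cells stood at 1053.7 ± 85.3 CPM, T or NK-like cells at 1006.9 ± 110.1, stem-like cells at 664.2 ± 56.6 and granulocyte-monocyte progenitor-like cells at 578.0 ± 44.7. The gene was lowest in neutrophil precursor-like cells, at 78.6, 77.4, 77.6 and 93.7 CPM, and next lowest in neutrophil-like cells, at 222.6, 156.1, 150.3 and 247.7 CPM. After subtraction of free RNA these means fell to 58.4 and 118.3 CPM, which leaves their order in place. From granulocyte-monocyte progenitor-like cells Ly6e was thus higher towards monocyte-like and lower towards neutrophil-like cells, without overlap in either direction.

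Over the 15 class means of log2(CPM + 1), the levels of Ly6e and Ly6g ran in opposite directions (Pearson r = -0.82), while the other pairs of members had r between -0.45 and 0.47. That value rests largely on the neutrophil precursor- and neutrophil-like classes, where Ly6e was lowest. In the other classes Ly6g was near 0, so no graded relation can be read from it. The genes most like each member were chosen among 7604 genes reaching 20 CPM in a class. For Ly6d these were Blnk (0.96), Fcrla (0.95) and Spib (0.94), which encode a B cell adaptor, an Fc receptor-like protein and a transcription factor of B and plasmacytoid dendritic cells. Ly6g was most like Ankrd22 (0.97), Scrg1 (0.97) and Mxd1 (0.97), and Ly6e most like Ccdc50 (0.96), Alyref2 (0.91) and Cd48 (0.91). Ly6a was closest to Eif4a2 (0.91), Cd200 (0.91) and Zbtb24 (0.89), and Ly6c2 to Serf2 (0.86), Fam49b (0.86) and Sema4a (0.85). Ly6c1 was closest to Kcnip3 (0.83), Ube2g2 (0.79) and Tmem37 (0.78), from levels near 0. The 15 points share 4 libraries and differ in depth, so these are descriptions.

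Among 38 other listed genes of the Ly6/uPAR fold, 34 were in the matrices, 19 had a UMI in a cell and 5 reached 20 CPM in a class. Cd177, a neutrophil surface protein, had 872.9 CPM in neutrophil precursor-like and 469.4 in neutrophil-like cells. Plaur, the urokinase receptor, had 225.8 and 293.6 CPM there. Ly6k and Lynx1 were highest in mature B-like cells (133.9 and 28.8 CPM), and Cd59a, an inhibitor of the complement membrane attack complex, in erythroid-like cells (25.0 CPM).

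The genotype comparison asks whether Idh1-R132H changed the members within a class. Differences are log2 values, Idh1-R132H minus Idh1-WT, from edgeR's quasi-likelihood test on each library's summed UMIs of a class. FDR is the Benjamini-Hochberg adjusted p over every gene tested in that class. Members passed the filter on low counts in 56 pairs of member and class: Ly6c2 and Ly6e in 15 classes, Ly6a in 12, Ly6d in 8, Ly6g in 6 and Ly6c1 in none. Ly6c2 and Ly6e rose in monocyte progenitor-like and granulocyte-monocyte progenitor-like cells, and the other 52 pairs did not pass. These 4 calls of 56 compare with 0.303% of all gene tests called over the same classes, or 0.137% called higher. Unadjusted p-values lay below 0.05 in 14 pairs, beside 6.81% of all gene tests. The 56 and the 14 pairs include Ly6a in neutrophil precursor-like cells, which passed the filter only through the Idh1-R132H libraries.

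**Figure D4:**
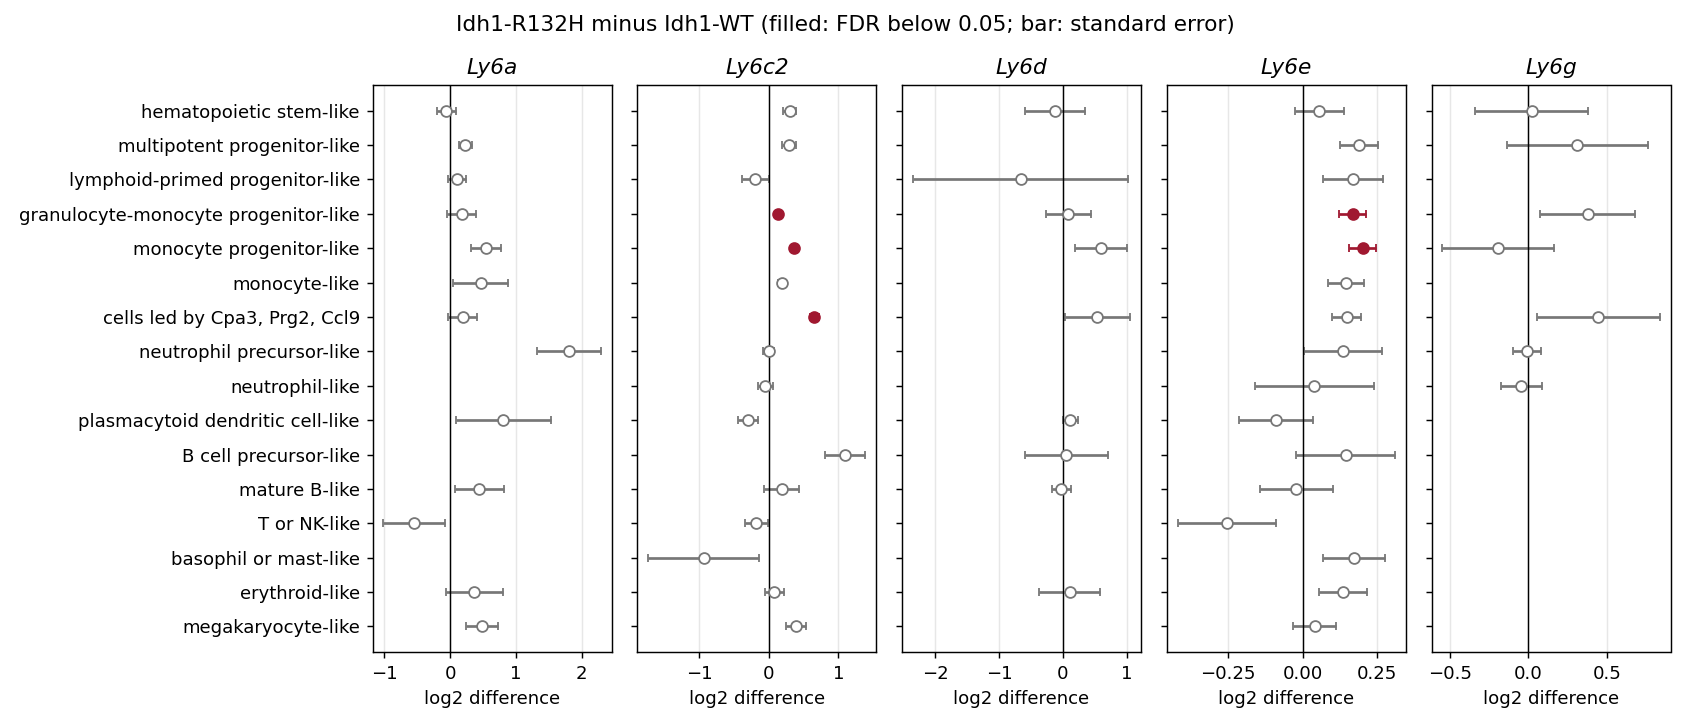
Log2 difference, Idh1-R132H minus Idh1-WT (x axis), with its standard error, for 5 members in the 15 named classes and 1 unnamed cluster (y axis), each panel with its own x range. Filled points passed an FDR of 0.05: Ly6c2 and Ly6e in both progenitor classes, and Ly6c2 in the cluster led by Cpa3, Prg2 and Ccl9.

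In monocyte progenitor-like cells both Idh1-WT libraries had lower Ly6c2 (2726.2 and 2676.6 CPM) than both Idh1-R132H libraries (3293.5 and 3552.0 CPM), so the groups did not overlap. The difference was 0.37 (SE 0.04, FDR 3.0e-05, edgeR), and DESeq2 gave an FDR of 1.8e-07. It was the gene with the third smallest p of 10164 tested, of which 0.354% were called. The call held with any 1 library left out (0.30 to 0.43) and was 0.37 with an FDR of 9.6e-06 without the shared barcodes. It was lost when each cell was classed by its own markers (0.23, FDR 0.11), a rule that gave 50.1% of these cells the same class. Cells that carried Xist and lacked counts from 4 Y-linked genes made up 81.3%, 56.3%, 54.1% and 35.8% of this class in the 4 libraries, and within them alone the difference was 0.40 (FDR 5.0e-08).

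Ly6e in the same cells measured 951.2 and 1026.9 CPM with wild-type Idh1 against 1084.8 and 1151.8 CPM with R132H, also without overlap. The difference was 0.20 (SE 0.05, edgeR FDR 0.044, DESeq2 FDR 0.083). It did not pass without Idh1-WT 1 (FDR 0.23), Idh1-R132H 1 (FDR 0.070) or Idh1-R132H 2 (FDR 0.68), so it was at the limit of the test. Ly6a, at 4.5 to 7.3 CPM, and Ly6d and Ly6g, below 5 CPM, did not pass here.

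In granulocyte-monocyte progenitor-like cells 1.38% of 10225 genes were called, the largest share of any class. Ly6c2 measured 2114.3 and 2460.0 CPM with wild-type Idh1 against 2474.9 and 2479.6 CPM with R132H, and the difference was 0.14 (SE 0.04, edgeR FDR 0.041, DESeq2 FDR 0.66). Idh1-WT 2 lay close to both Idh1-R132H libraries, and without Idh1-WT 1 the difference was 0.04 (FDR 0.83). The call was also absent without Idh1-R132H 1 (0.15) or Idh1-R132H 2 (0.13). Without the shared barcodes it was lost as well (0.16, edgeR FDR 0.21). Ly6e measured 533.8 and 564.2 against 574.3 and 639.8 CPM, a difference of 0.17 (SE 0.04, edgeR FDR 0.019, DESeq2 FDR 0.28). Its call was lost without Idh1-WT 1 (0.14) or Idh1-R132H 2 (0.08), and held without the shared barcodes (0.20, edgeR FDR 0.033).

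Ly6c2 also rose in an unnamed cluster led by Cpa3, Prg2 and Ccl9, which encode a mast cell protease, an eosinophil granule protein and a chemokine. Its level was 211.9, 198.4, 309.6 and 332.1 CPM in 310, 214, 290 and 348 cells. The groups did not overlap, and the difference was 0.66 (SE 0.06, FDR 6.1e-06, edgeR) where 0.12% of 9992 genes were called. The call rested on cells with shared barcodes. In Idh1-R132H 1, 44 such cells held 678 of the 1479 Ly6c2 UMIs, and without them that library had 222.3 CPM, close to 212.6 and 199.6 CPM in the Idh1-WT libraries and below 328.5 CPM in Idh1-R132H 2, which left a difference of 0.44 (FDR 0.85). When only the copy with fewer UMIs was removed, the difference was 0.66 (FDR 4.3e-06). Free RNA, at 1259.3 to 1529.3 CPM of Ly6c2, was higher in both Idh1-R132H libraries than in both Idh1-WT libraries, and after its subtraction the difference was 0.68 (FDR 4.3e-06).

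**Figure D5:**
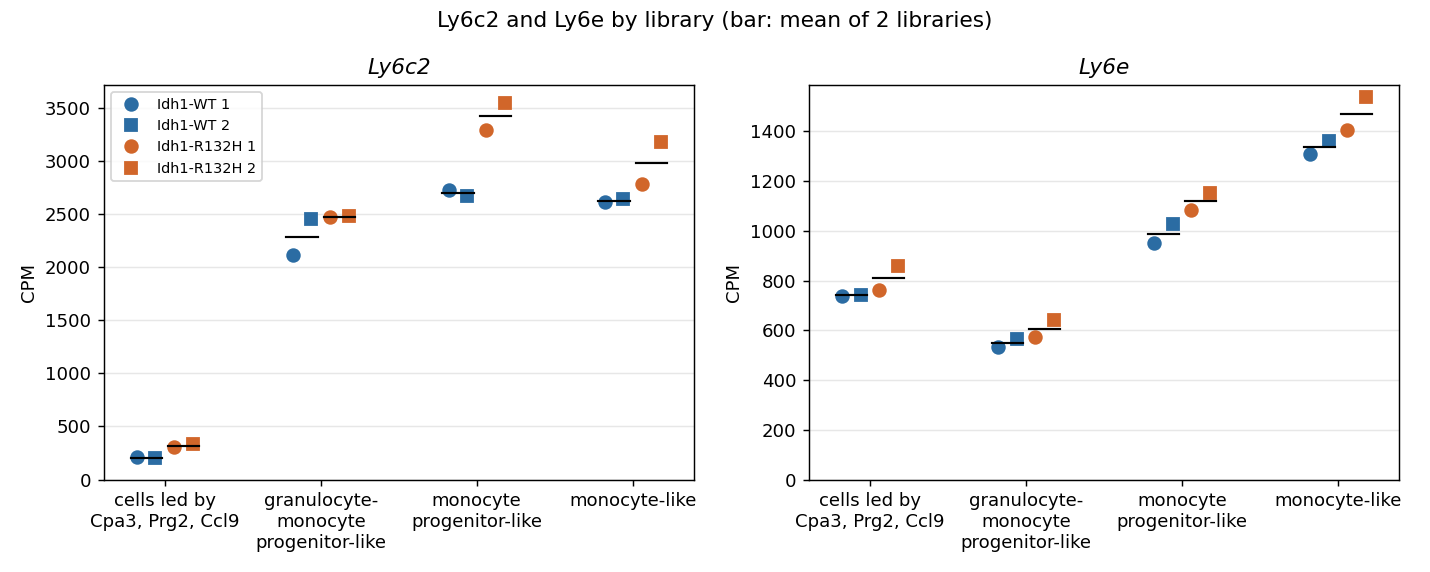
Level (y axis, CPM) of Ly6c2 and Ly6e by library in 4 groups of cells (x axis), with the mean of each group as a bar. Ly6c2 in monocyte progenitor-like cells is at least 3293.5 CPM in both Idh1-R132H libraries and at most 2726.2 CPM in both Idh1-WT libraries, whereas in granulocyte-monocyte progenitor-like cells Idh1-WT 2 lies beside the Idh1-R132H libraries.

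Monocyte-like cells had Ly6c2 levels of 2614.3 and 2645.5 against 2787.1 and 3185.1 CPM, without overlap, and the difference of 0.19 (SE 0.05) did not pass (edgeR FDR 0.064, 0.609% of genes called). Ly6e there was 1308.5 and 1362.6 against 1404.3 and 1536.2 CPM, with a difference of 0.15 (SE 0.06, FDR 0.49). The Ly6c2 difference in monocyte-like minus that in monocyte progenitor-like cells was -0.17 (SE 0.06), which did not pass (FDR 0.38, edgeR genotype by class term, 0.121% of genes called). Monocyte progenitor-like minus granulocyte-monocyte progenitor-like cells gave 0.23 (SE 0.13, FDR 0.93, 0.0473% called). No member passed in any of the 7 pairs of classes compared, where 0.0906% (granulocyte-monocyte progenitor and neutrophil precursor), 0.13% (neutrophil precursor and neutrophil), 0.102% (neutrophil and monocyte) and 0 (the other 2 pairs) of genes were called.

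In neutrophil-lineage cells the genotype differences of Ly6g and Ly6c2 were smaller than their standard errors. Ly6g differed by -0.01 (SE 0.09) in neutrophil precursor-like and -0.04 (SE 0.13) in neutrophil-like cells, and Ly6c2 by -0.00 (SE 0.07) and -0.05 (SE 0.11), where 0.262% and 0.386% of genes were called. Ly6a in neutrophil precursor-like cells was 2.2 and 2.7 against 5.7 and 10.6 CPM, from 10 against 36 UMIs. It passed the filter on low counts only through the Idh1-R132H libraries and its levels were below those of free RNA, so these values are a description.

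In stem-like cells Ly6a, the sorting antigen, differed by -0.05 (SE 0.14), and 0.0827% of genes were called. Ly6c2 there was 97.3 and 86.4 CPM against 106.9 and 122.5 CPM, a difference of 0.30 (SE 0.10, FDR 0.74), and without Idh1-WT 1 it was 0.40 (FDR 0.0080). In multipotent progenitor-like cells Ly6c2 differed by 0.29 (SE 0.10), Ly6a by 0.23 (SE 0.09) and Ly6e by 0.19 (SE 0.06). None had an FDR below 0.49 (0.103% of genes called). The groups did not overlap for these members, but the share of all genes without overlap was not counted. Ly6c2 in free RNA was also higher in both Idh1-R132H libraries, and after its subtraction the stem-like difference was 0.25 (FDR 0.98). The multipotent progenitor-like levels then overlapped, at 61.3 and 70.0 against 63.3 and 91.3 CPM (0.26, FDR 0.91). At Leiden resolution 2 the unsubtracted difference passed (0.53, FDR 1.4e-04), but the class then held other cells. It took in a cluster of 694 cells led by Cpa3, Ccl9 and H2afy, and another of 1044 led by Fam64a, Nusap1 and H1f0. Clusters led by Cpa3 and by Fam64a were unnamed at resolution 1, and whether the difference came from such cells was not tested.

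The lymphoid and dendritic classes gave no call with all 4 libraries, nor did an unnamed cluster of cycling cells led by Fam64a, Nusap1 and Cenpf (0.0595% of genes called). Ly6d differed by -0.02 (SE 0.15) in mature B-like, 0.11 (SE 0.12) in plasmacytoid dendritic cell-like and 0.05 (SE 0.65) in B cell precursor-like cells, where it was -0.90 (FDR 0.026) without Idh1-R132H 2. In lymphoid-primed progenitor-like cells Ly6d differed by -0.66 (SE 1.68), by -1.61 (FDR 2.2e-07) without Idh1-WT 1 and by 3.77 (FDR 2.0e-05) without Idh1-WT 2, so 1 library turned its direction. Ly6e differed by -0.02 (SE 0.12) in mature B-like and -0.26 (SE 0.16) in T or NK-like cells. Ly6a in mature B-like cells differed by 0.45 (SE 0.37), with the richest cells in Idh1-WT 1 and Idh1-R132H 1, and without Idh1-WT 1 the difference was 1.05 (FDR 0.0084). Ly6a in plasmacytoid dendritic cell-like cells passed only in that same setting (2.17, FDR 0.034). Ly6c2 in basophil or mast-like cells differed by -0.93 (SE 0.80, FDR 0.97), and by -1.52 (FDR 6.2e-12) without Idh1-WT 2. Ly6c2 in B cell precursor-like cells was 105.0 and 65.0 CPM against 192.7 and 146.3 CPM, a difference of 1.10 (SE 0.29, FDR 0.17). It passed with the replicate number as a block (1.06, FDR 0.040), without Idh1-WT 1 (1.42, FDR 0.011), without Idh1-R132H 2 (1.30, FDR 0.018) and after subtraction of free RNA (1.65, FDR 0.040). There 5 cells held 83.0% and 75.0% of the UMIs of the Idh1-R132H libraries, and without the 5 richest cells of each library the levels were 63.8, 44.5, 72.7 and 55.6 CPM.

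Over the classes tested, the log2 difference was above 0 for Ly6e in 12 of 15, for Ly6a in 10 of 12, for Ly6c2 in 9 of 15, for Ly6d in 5 of 8 and for Ly6g in 3 of 6. Median differences were 0.14 for Ly6e, 0.41 for Ly6a, 0.14 for Ly6c2, 0.07 for Ly6d and 0.01 for Ly6g, while the median of all genes tested lay between -0.02 and 0.01 in every class. The count and median of Ly6a include neutrophil precursor-like cells (1.80), where it passed the filter on low counts only through the Idh1-R132H libraries. The classes of 1 library share its preparation and its free RNA, so these counts are not independent.

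Related gene lists gave a background for these values. No other Ly6/uPAR gene passed in any class, at 0 to 6 genes tested, and none of the 4 to 25 tested genes for GPI anchor synthesis and transfer passed. Among 20 listed interferon-response genes, 4 of 19 tested rose in monocyte-like cells (0.609% of all genes called), 2 of 18 in granulocyte-monocyte progenitor-like (1.38%), 1 of 17 in monocyte progenitor-like (0.354%) and 1 of 10 in neutrophil precursor-like cells (0.262%), and none fell. Ifitm3, a membrane protein that restricts virus entry, was 291.3 and 278.4 against 401.8 and 451.6 CPM in monocyte progenitor-like cells, a difference of 0.60 (FDR 4.6e-06). Ifi27l2a rose by 0.91 in monocyte-like cells (1559.5 and 1397.9 against 2512.6 and 3017.3 CPM) and by 0.75 in neutrophil precursor-like cells. Rsad2, an antiviral enzyme counted among the 4, was 5.34 and 5.43 against 17.5 and 21.5 CPM and passed the filter on low counts only through the Idh1-R132H libraries. The list's median was 0.43 in monocyte-like and 0.31 in monocyte progenitor-like cells, beside medians of all genes of -0.00 and 0.01. It was 0.48 in plasmacytoid dendritic cell-like, 0.32 in lymphoid-primed progenitor-like, 0.29 in stem-like and 0.25 in multipotent progenitor-like cells, without a call. Granulocyte-monocyte progenitor-like cells had 0.17, neutrophil precursor-like 0.14 and B cell precursor-like cells 0.08. The median was below 0 in neutrophil-like (-0.15, 4 of 14 tested higher), T or NK-like (-0.32, 1 of 6) and megakaryocyte-like cells (-0.11, 5 of 15). It was also below 0 in basophil or mast-like (-0.14, 3 of 7), mature B-like (-0.04, 4 of 8) and erythroid-like cells (-0.01, 7 of 14). None of the classes below 0 had a call.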

How the data were processed

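The deposited files hold the authors' raw UMI counts of every barcode, cells and empty droplets alike. Cell Ranger 4.0.0, Seurat and GRCm38/mm10 are named in the submitters' processing notes. Cells needed 500 UMIs, 200 genes and no more than 10% of UMIs from mitochondria. Scrublet removed 2, 31, 5 and 73 cells, so it hardly worked in 2 libraries. Cells were clustered in scanpy 1.11.5 (2000 variable genes, 30 components, 15 neighbours, Leiden resolution 1) without Ly6/uPAR or sex-linked genes, and 18 of 24 clusters were named from 21 marker sets. Of a class's markers, all or all but 1 were higher in it than in other cells. Single cells took the same class from their own markers for 97.1% of granulocyte-monocyte progenitor-like, 90.3% of neutrophil-like, 46.3% of stem-like and 42.5% of multipotent progenitor-like cells. Classes with at least 20 cells per library were tested with edgeR 4.0.16 (TMM, filterByExpr, robust) and, as an alternative, DESeq2 1.42.0. Only the edgeR test was tried on simulated counts. There it recovered 46.6% of log2 changes of size 0.5 in monocyte progenitor-like and 48.6% in granulocyte-monocyte progenitor-like cells. False calls made up 5.5% and 2.6% of its calls in these classes, and 12.7% in mature B-like cells. The simulated counts used the spread that the same fit had estimated, with no further difference between libraries. These rates therefore cannot measure false calls in the real data. In granulocyte-monocyte progenitor-like and monocyte-like cells the median prior degrees of freedom were infinite, so most genes there took a spread fitted over all genes. SDs are over libraries. A count of 0 was taken to allow 3 counts, which covers counting error only. Members, lists and markers were chosen with earlier results of these data known. Named genes are the members, other Ly6/uPAR genes reaching 20 CPM in a class, the 3 genes most like each member, and up to 2 called genes per list and class. Of 27998 features, 27645 (98.7%) matched GENCODE vM21.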

Additional observations from a re-analysis of the deposited data

How the results depend on the processing

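The count of members called over the 15 named classes was 4, and 2 with library totals alone, 1 with DESeq2, 2 without the 3% highest doublet scores, 2 with a class per cell and 1 in Xist-carrying cells alone (13 classes). With each library left out it ran from 3 to 6, the lone library of a group being assumed to vary like the other group. Of 19 alternatives, the Ly6c2 call in monocyte progenitor-like cells held in 18 and Ly6e there in 9. In granulocyte-monocyte progenitor-like cells the Ly6e call held in 12 and Ly6c2 in 7, and none of these 4 differences changed sign. Removal of a stem-like cluster, counted among the 19, could not change these 4 calls, because each class was fitted alone. A minimum of 1000 UMIs per cell left both monocyte progenitor-like values unchanged. Other calls appeared in 13 further pairs of member and class, 9 of them in 1 alternative only; Ly6c2 in monocyte-like cells was called in 5. With the replicate number as a block the count was 3: of the 4 calls only Ly6c2 in monocyte progenitor-like cells held (FDR 7.5e-04), and Ly6c2 passed in monocyte-like (FDR 0.016) and B cell precursor-like cells (FDR 0.040). Deviations of same-numbered libraries correlated at -0.09 to 0.27, and the main test did not pair samples by number. The 2 libraries numbered 1 nevertheless shared 345 barcodes and had few Scrublet calls (2 and 5, against 31 and 73). Whether same-numbered libraries were prepared together was not tested, so the block fit remains a limit on the other 3 calls. DESeq2 called 13 genes in granulocyte-monocyte progenitor-like cells where edgeR called 141, and 11 against 36 in monocyte progenitor-like cells. Members led by 1 of 4 classes without overlap numbered 5, and 6 without Idh1-WT 2, both counts with Ly6c1, whose position was not detectable. The share of all genes so led was not counted, so these numbers do not set the members apart from other genes. Depth limits Ly6c1 in all classes, and Ly6a and Ly6g below about 10 CPM. The barcode, stem cluster and 1000-UMI thinning alternatives were chosen after seeing the data; the causes of the lost calls were not tested.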

Other observations

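At a finer clustering (Leiden resolution 2), a stem-like cluster was led by Ifit1, Isg15 and Rtp4, genes induced by interferon, with 37, 40, 55 and 91 cells in the library order used above. Ly6a was 459.1, 408.1, 374.4 and 457.9 CPM there and Ly6e 872.0, 892.5, 879.9 and 1034.2 CPM, each above the stem-like class level of the same library. Ly6c2 was 118.9, 59.7, 84.7 and 109.0 CPM. The values of Ly6a, Ly6c2 and Ly6e overlapped between the groups.

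A small unnamed cluster led by Gngt2, Ear2 and Clec4a3 (22, 16, 28 and 47 cells) had 155.3, 444.0, 353.5 and 467.5 CPM of Ly6c2, below every monocyte-like library, and 2465.8, 1554.1, 2024.6 and 1268.2 CPM of Ly6e. Ly6g there was 58.2, 310.8, 48.2 and 263.0 CPM, above every monocyte-like library, but from only 3 UMIs each in Idh1-WT 1 and Idh1-R132H 1. The cluster was not tested between the groups because Idh1-WT 2 had under 20 of its cells.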
